A study of Mus musculus with 2 samples.

Results

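The genes described here encode the translation initiation factors of the mouse, taken from a microarray comparison of leukaemia cells with a high and a low signal of a redox sensor. Members were chosen by name: probes that are not controls and whose RefSeq accession belongs to a symbol beginning with Eif1 to Eif6, leaving out the Eif2ak kinases. The rule found 51 genes with a usable probe, of 20618 named genes, and 49 of them were measured (well above background) on both arrays, of 10517. Of 64 symbols that fit the rule in the gene table, 13 had no matched probe and 11 of those were pseudogenes; the other two were Eif3j2, a second gene for the eIF3 j subunit, and Eif2c5, a non-coding gene with an Argonaute alias.

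Initiation is the step at which a ribosome finds the start codon of an mRNA. The eIF4F complex binds the cap, eIF2 brings the initiator tRNA, eIF3 holds the small ribosomal subunit, eIF1 and eIF1A guard start codon choice, and eIF5 and eIF5B let the large subunit join. Phosphorylation of eIF2, which blocks its exchange factor eIF2B, and capture of the cap-binding protein by the 4E-BPs are the best known brakes on the process, and several of its genes are known targets of MYC proteins.

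SoNar is a genetically encoded fluorescent sensor of the cytosolic NADH/NAD+ ratio. The material was bone marrow of mice with B-ALL (acute lymphoblastic leukaemia of B cells), for which the labels give an age of 8 weeks. Cells were sorted by the sensor into populations called SoNar-high and SoNar-low, and RNA of each went onto 1 one-colour Agilent array. In the titles the same samples are called N-myc-high or N-myc-low, and the groups here follow the sensor's label; how the leukaemia was made and how many animals were used are not given in the sources used here. With 1 array per population no test between them was possible, and precision is limited by that number; scan session and population cannot be told apart.

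All differences are log2 values of SoNar-high cells less those of SoNar-low cells, after each array was scaled to its 75th percentile (475 and 525.0 intensity units on the SoNar-high and SoNar-low arrays). A gene with the same number of units on both arrays therefore lay at 0.15, near the median of all 10517 genes, 0.17, which serves as the reference point. Signals are the scanner's processed signals in intensity units. A difference between 1 spot of each array had a median SD of 0.16 over 166 probes printed as several spots, and the probes of one gene had a median SD of 0.32 over 2394 genes; neither covers the error between animals or sorts. On the SoNar-high array 44.8% of spots were well above background, against 72.9% on the SoNar-low array.

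The cell label was set beside marker genes. Of 12 B-lineage genes 10 were measured on both arrays. Igll1, which encodes a part of the surrogate light chain, and Rag1, which encodes a recombinase of antigen receptor genes, were not. The measured ones ran from Cd22 (-1.16) to Ebf1 (0.92). All 10 neutrophil genes were measured on both arrays too, so such counts do not check the label. Markers of other cells differed between the arrays: summed over each list, neutrophil genes had 18464 units in SoNar-high and 25423 in SoNar-low cells, T and NK cell genes 954 and 2454, monocyte and macrophage genes 492 and 890, and lung genes 181 and 1792. The sums of the other lists do not show the direction of their genes. Erythroid genes had 23151 and 15400 units, nearly all from Hemgn (22791 and 14153), whereas Hba-a1 (118 and 481) and Ermap (186 and 654) were lower in SoNar-high cells and the median of the 3 measured genes was -1.67. Brain genes had 1902 and 1997 units and a median of 2.09 over 5 measured genes, of which 3 were over 2-fold higher (Rtn1, Cck and Cpe) and 1 lower (Snap25). The sums take the brightest probe of each gene, whether or not it passed background. On both arrays 4 T and NK cell genes, 4 monocyte and macrophage genes and 1 lung gene were measured. Weak probes as a whole stood lower on the SoNar-high array than strong ones. Whether other cells contributed to the values of the initiation factors was not tested. Fewer cells of a type, less RNA per cell and the weakness of the probes cannot be told apart.

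The initiation factor genes as a group differed little between the populations. Of the 49 measured genes 0 passed 2-fold in favour of SoNar-high cells and 0 in favour of SoNar-low cells, where over all measured genes 1.68% were higher and 4.87% lower in SoNar-high cells. At 1.5-fold 4 were higher (8.16%, against 16.6% of all genes) and 0 lower (against 11.3%). The 4 were Eif1a, Eif1ax, Eif2a and Eif4g1. The whole family lay between -0.46 (Eif4h) and 0.82 (Eif1a), with an interquartile range of 0.43 against 0.67 over all genes, and 44 of 49 (89.8%) stood within 0.5 of the median gene, against 69.7% of all genes.

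The family median was 0.32, which was 0.15 above the median gene, and 32 of 49 genes were above that gene. Strong probes as a whole stood higher on the SoNar-high array, and nearly all of these genes have strong probes. Among the brighter 50% of probes, where 47 of the 49 genes were kept, the family median was 0.32 and that of all 5729 genes 0.33, so the family stood 0.01 below it with 22 of 47 genes above. Among these brighter probes the interquartile range was 0.41 for the family and 0.55 for all genes, and 2-fold was passed by 1.57% of all genes upward and 2.15% downward, against 0 of 47 each way. The small shift of the family was also absent, or below 0, relative to the median gene after quantile normalization (-0.06), loess on the level (-0.02) and in the authors' series matrix (-0.04). With no filter on dim probes it was larger, 0.32, with 39 of 51 genes above the median gene. There the median gene lay at -0.01 and the family median at 0.31, so it was mainly the median gene that had moved.

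**Figure D1:**
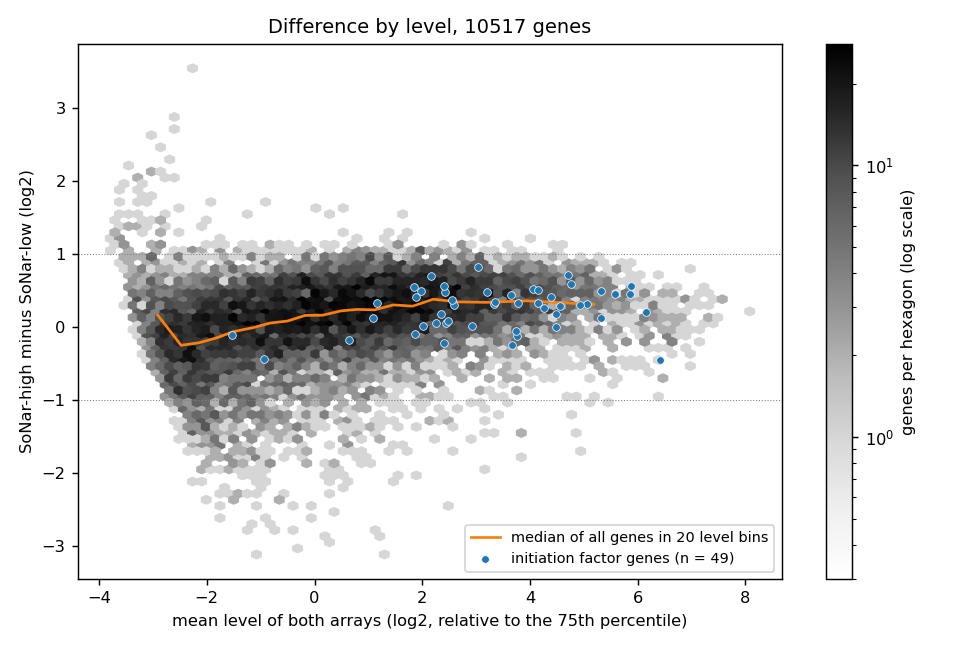
Difference between the arrays (vertical axis, log2) against the mean level on both arrays (horizontal axis, log2 relative to the 75th percentile) for 10517 genes; grey hexagons count genes, the orange line is the median of all genes in level bins, and blue points are the 49 initiation factor genes. The blue points lie around the orange line, and none passes the dotted lines at 2-fold.

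The group of the start codon factors eIF1 and eIF1A included the highest values of the family, those of Eif1a and Eif1ax. Its median of 0.48 is the value of Eif1ad, and Eif1 (by the mean of its probes) and Eif1b lay below the median gene. Eif1a, which encodes a form of eIF1A, gave 5175 units in SoNar-high and 3246 in SoNar-low cells, a difference of 0.82 or 1.76-fold. Its X-linked relative Eif1ax gave 15949 and 10772 units, a difference of 0.71. These led the 49 genes, and each rests on 1 probe. Whether the probes tell these relatives apart was not tested. Eif1ad, which encodes a protein with an eIF1A domain, had probes at 0.74 and 0.23 and a mean of 0.48. These 3 genes stayed above the median gene under every alternative processing tried, though scalings that shift all genes alike could not change this.

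Eif1 encodes the factor that keeps the scanning complex open until the start codon is met. One Eif1 probe gave 19711 and 13001 units (0.75) and the other 1909 and 4178 (-0.98). The probes thus pointed in opposite directions by more than the family's whole range of gene values, and their mean of -0.12 describes neither. The close relative Eif1b gave 2320.0 and 2470 units, a difference of 0.05, and sat below the median gene.

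The genes of eIF2, the carrier of the initiator tRNA, were close to the median gene. Eif2s1, the alpha subunit whose phosphorylation slows initiation, had probes at 0.15 and 0.21 (14295 and 14269 units for the stronger one). Eif2s2, the beta subunit, had probes at 0.22 and 0.42. Eif2s3x, the X-linked gamma subunit, had probes at 0.26 and 0.49 and a mean of 0.37, whereas the Y-linked Eif2s3y lay at -0.09 (1667 and 1967 units). The gamma copies share most of their sequence, so the reading of each is uncertain.

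Factors that can bring tRNA to the ribosome without eIF2 were measured too. Eif2a, which encodes the separate protein eIF2A, gave 2698 and 1843 units, a difference of 0.69 and the highest of this group. Eif2d had probes at 0.16 and 0.51. The lower of these is the only probe of the family printed as 10 spots: they ranged from 684 to 842 units (median 787) on the SoNar-high array and from 713 to 821 (median 780.1) on the SoNar-low array. Those ranges overlapped, and the spot SD was 0.10 and 0.06 on the log2 scale.

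All 5 genes of eIF2B, the exchange factor that recharges eIF2 with GTP, lay above 0 and 4 of 5 above the median gene. Eif2b3 (0.49, probes at 0.29 and 0.68) and Eif2b4 (0.48, 3004 and 2381 units) were highest. Eif2b3 encodes the partner of the catalytic subunit and Eif2b4 a regulatory subunit, and both stayed above the median gene under every alternative. Eif2b2 (0.33) and Eif2b1 (0.30), also regulatory subunits, were next. Both lay below the median gene after quantile normalization, after loess and in the series matrix, and Eif2b1 also among the brighter probes. Eif2b5, the catalytic epsilon subunit, was lowest at 0.06 (2646 and 2812 units).

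The 13 measured genes of eIF3, the largest of the factors, had a median of 0.32, and 9 of 13 lay above the median gene, although that median lay just below the median gene with normexp, loess and the brighter-probe filter. The genes of the b, g and i subunits, which form a module of their own, gave 0.49 (Eif3b, 22534 and 17726 units), 0.56 (Eif3g, 33941 and 25447 units) and 0.34 (Eif3i, 5434 and 4748 units). All were higher in units on the SoNar-high array. Eif3d, whose product can itself bind a cap, had almost equal signals of 19952 and 20146 units, a difference of 0.13.

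Subunits of the octameric core were more mixed. Eif3l (0.45), Eif3a, the scaffold subunit (0.41), Eif3f (0.41), Eif3c (0.32) and Eif3h (0.31) lay above the median gene. The Eif3h probes, at 0.56 and 0.05, lay on both sides of that gene. Under some alternatives Eif3c and Eif3h lay just below it (lowest -0.01 and -0.03). Eif3e, also known as Int6 for an integration site of a mouse tumour virus, was lowest of the complex at -0.22 (2324 and 2985 units). Eif3k had 3 probes at 0.30, 0.19 and -0.47, and Eif3m had probes at 0.81 and -0.44. For those genes the sign depended on the probe chosen.

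Eif3j1, the loosely bound subunit that leaves when mRNA enters, lay at -0.06 (6217 and 7146 units) by the 1 probe used. A second Eif3j1 probe was left out because its spot was marked non-uniform on the SoNar-low array. It read 294 units in SoNar-high and 3807 in SoNar-low cells, a difference of -3.55. With that spot kept the gene stood at -1.80, which made it the 1 member past 2-fold.

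**Figure D2:**
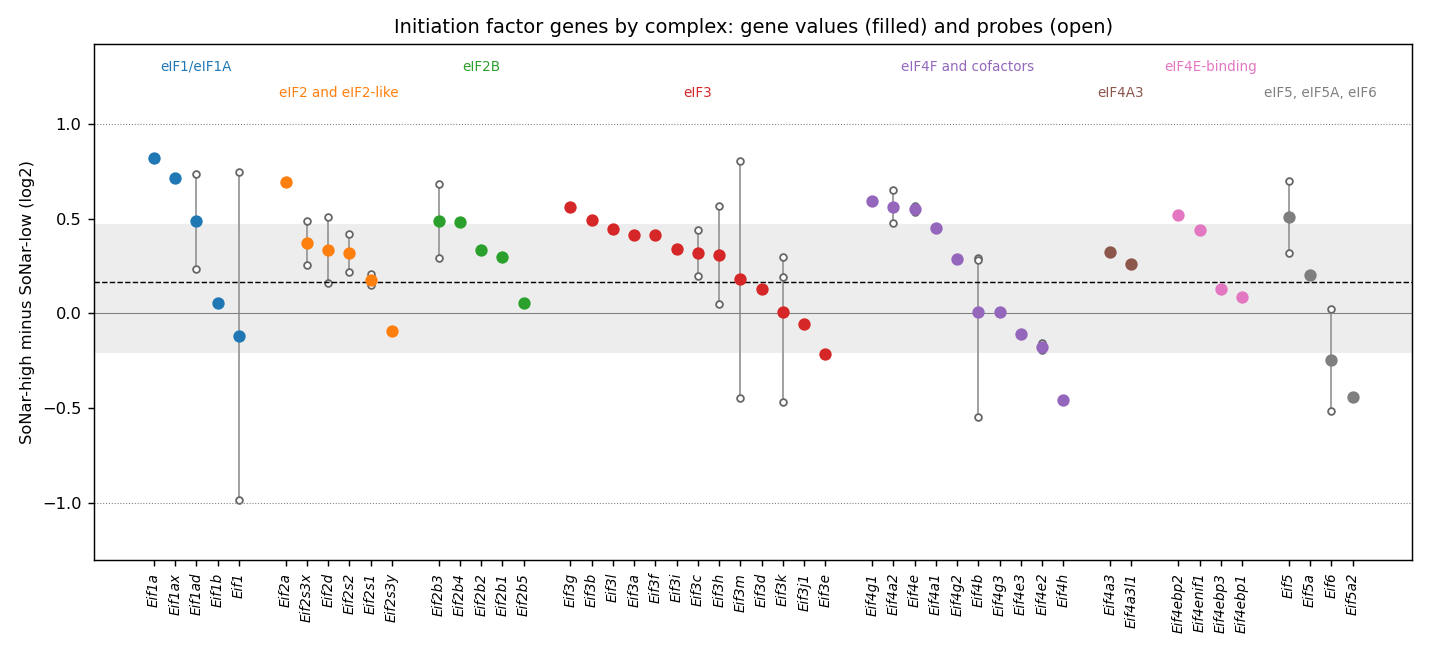
Difference between the arrays (log2, vertical axis) for each of the 49 measured initiation factor genes, grouped by complex; filled points are genes, open points joined by grey lines are the probes of genes with several, the dashed line is the median of all genes and the grey band their interquartile range. All filled points lie within the dotted 2-fold lines, and the 2 probes of Eif1 span -0.98 to 0.75.

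The cap-binding group divided by subunit. The genes of the canonical eIF4F complex were higher: Eif4g1, the main scaffold, gave 15757 and 11540 units, a difference of 0.59 or 1.51-fold. Eif4e, the cap-binding subunit, had probes at 0.57 (13166 and 9822 units) and 0.53 (323 and 247 units), which agree within the spread between spots. Of the helicase genes, Eif4a2 lay at 0.56 (probes at 0.65 and 0.48) and Eif4a1 at 0.45 (32338 and 26171 units).

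Their relatives and cofactors lay lower. Eif4g3, the second scaffold gene, gave 10615 and 11700.1 units, a difference of 0.00, and a second probe passed background for SoNar-low cells alone (30.5 and 81.7 units), at least 1.59-fold higher there. Eif4e2, whose product 4EHP binds caps without recruiting the scaffold and acts as a repressor, had measured probes at -0.19 (8104 and 10244 units) and -0.16. Eif4e3 gave 158 and 188 units, a difference of -0.11. Eif4g2, which encodes the scaffold relative DAP5 that lacks the site for eIF4E, lay between both sets at 0.29 (12318 and 11150 units).

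Of the cofactors that stimulate the helicase, Eif4h had the lowest value of the 49 genes, -0.46, with 34352 units in SoNar-high and 52078 in SoNar-low cells. Eif4b had 3 probes at 0.29, 0.28 and -0.55, with a mean of 0.01. Its side of the median gene depended on the probe: relative to that gene the mean of the probes lay at -0.16 and their median at 0.11. Under the main processing the lowest of Eif4e, Eif4a1, Eif4a2 and Eif4g1 (0.45) thus stood 0.44 above the highest of Eif4e2, Eif4e3, Eif4g3, Eif4b and Eif4h (0.01), and this gap was between 0.17 and 0.45 under the alternatives. These sets were formed after the values were seen, and the gap has no test. Eif4e1b, a germline relative of Eif4e, was not measured: one of its probes passed background in SoNar-low cells alone (27.7 units, against 13.0), below the weakest signal that counts on the SoNar-high array, so no fold is given.

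Pairs of relatives taken across these sets must differ in the same direction, so their values are a restatement and no further support. Eif4e exceeded Eif4e2 by 0.73 (0.51 to 0.76 under the alternatives) and Eif4e3 by 0.66 (0.38 to 0.67). Eif4e3 had weak signals (158 and 188 units), and strong probes as a whole stood higher on the SoNar-high array. What the level contributed to that difference was not tested. Eif4g1 exceeded Eif4g3 by 0.59 (0.53 to 1.23). The helicase pair was different: Eif4a2 was 0.11 above Eif4a1, which is within the spot SD of 0.16.

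Sequence before the start site was set beside these values because the sample titles name N-myc, and MYC proteins bind the E-box CACGTG. RefSeq promoters of build GRCm38.p6, from 250 bases before to 50 after the start site, were found for 40 of the 51 genes. An E-box was present in 10 of the 40 (25%), against 8.09% of all 27025 genes with a promoter and 12.3% of the 8478 that were measured here; CACGTG reads the same on both strands. The holders were Eif1b, Eif3a, Eif3f, Eif3k, Eif4a1, Eif4e, Eif4g1, Eif4h, Eif5a and Eif5a2. Shown are the E-boxes before the start site of the eIF4F subunit genes that hold one (Eif4g1, Eif4e and Eif4a1) and of the 2 lowest genes of the family, 5′ to 3′ on the gene's strand, with the E-box in capitals; a further Eif4g1 E-box, 16 bases after the start site, is not shown.
Eif4g1: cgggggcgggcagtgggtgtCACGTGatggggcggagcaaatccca
Eif4e, nearer the start site: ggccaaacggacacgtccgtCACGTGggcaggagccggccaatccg
Eif4e, further away: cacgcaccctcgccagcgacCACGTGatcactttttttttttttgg
Eif4a1: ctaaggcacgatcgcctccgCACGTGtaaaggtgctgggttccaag
Eif4h: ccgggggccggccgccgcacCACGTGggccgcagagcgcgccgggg
Eif5a2, nearer the start site: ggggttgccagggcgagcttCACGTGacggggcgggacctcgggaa
Eif5a2, further away: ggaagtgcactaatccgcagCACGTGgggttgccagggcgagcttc

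These stretches lie at chr16:20672653-20672698 (Eif4g1, plus strand), chr3:138527184-138527229 and chr3:138527020-138527065 (Eif4e, plus), chr11:69672587-69672632 (Eif4a1, minus), chr5:134639480-134639525 (Eif4h, minus), and chr3:28781140-28781185 and chr3:28781115-28781160 (Eif5a2, plus). Their E-boxes begin 54, 64, 228, 189, 96, 117 and 142 bases before the start site in that order. The motif was present in genes with high values in the cap-binding group (Eif4g1 0.59, Eif4e 0.55) and in those with the lowest values of the family (Eif4h -0.46, Eif5a2 -0.44). It was not found in the promoter of Eif4a2, which at 0.56 lay between Eif4g1 and Eif4e. The 10 holders had a median of 0.31 and the 29 measured genes with a promoter lacking it 0.33. A match of letters does not show binding.

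Of the 4 genes that hold eIF4E in check, 2 lay above the median gene and 2 just below it. Eif4ebp2 gave 9480.2 and 7328 units, a difference of 0.52, and Eif4enif1, which encodes a transporter of eIF4E that also represses it, lay at 0.44 (6914 and 5637 units). Both stayed above the median gene under every alternative. Eif4ebp1, the 4E-BP best known as a target of mTOR, lay at 0.09 (2709 and 2823 units) and Eif4ebp3 at 0.13 (1051 and 1063 units). Their signals were thus almost equal on both arrays. Relative to the median gene, Eif4ebp1 lay between -0.34 and 0.10 under the alternatives and Eif4ebp3 between -0.21 and 0.14.

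Eif4a3 encodes a helicase of the exon junction complex rather than an initiation factor. It lay at 0.33, and Eif4a3l1, at 0.26; the copies are nearly identical, so the reading of each is uncertain.

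The late factors ranged from above to well below the median gene. Eif5, the GTPase activator of eIF2, had probes at 0.70 and 0.32 with a mean of 0.51 and stayed above the median gene under every alternative. Eif5a, which encodes the hypusine-bearing factor that also aids elongation, gave 36243 and 34886 units, a difference of 0.20. Its relative Eif5a2 gave 212 and 318 units, a difference of -0.44, so the pair differed by 0.64 (0.31 to 0.64 under the alternatives). Eif5a2 had far weaker signals than Eif5a, and strong probes as a whole stood higher on the SoNar-high array. What the level contributed to this difference was not tested. Eif6, whose product keeps the large subunit from joining too early, had probes at 0.03 and -0.51 and a mean of -0.24. The 1 probe of Eif5b, which encodes the GTPase of subunit joining, did not pass background on any array (11.2 and 21.0 units).

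Over all 13 settings, where measured, 18 genes stayed above the median gene and 8 below, and 23 changed sides at least once. The 8 were Eif2s3y, Eif3e, Eif3j1, Eif4e2, Eif4g3, Eif4h, Eif5a2 and Eif6. The 18 included Eif1a, Eif1ax, Eif2a, Eif4e, Eif4a1, Eif4a2, Eif4g1 and Eif5, and from eIF3 the genes Eif3a, Eif3b, Eif3f, Eif3g and Eif3l. Not every setting could change a side. Scaling by the median, or by the percentile over other probes or over probes in place of spots, shifts all genes alike. Under those settings a gene's place relative to the median gene is fixed. Keeping outlier spots moved only 1 gene, Eif3j1, by over the spot spread. Of 17 members with several measured probes, 7 (41.2%) had probes on both sides of the median gene, against 51.1% of 2394 genes overall.

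**Figure D3:**
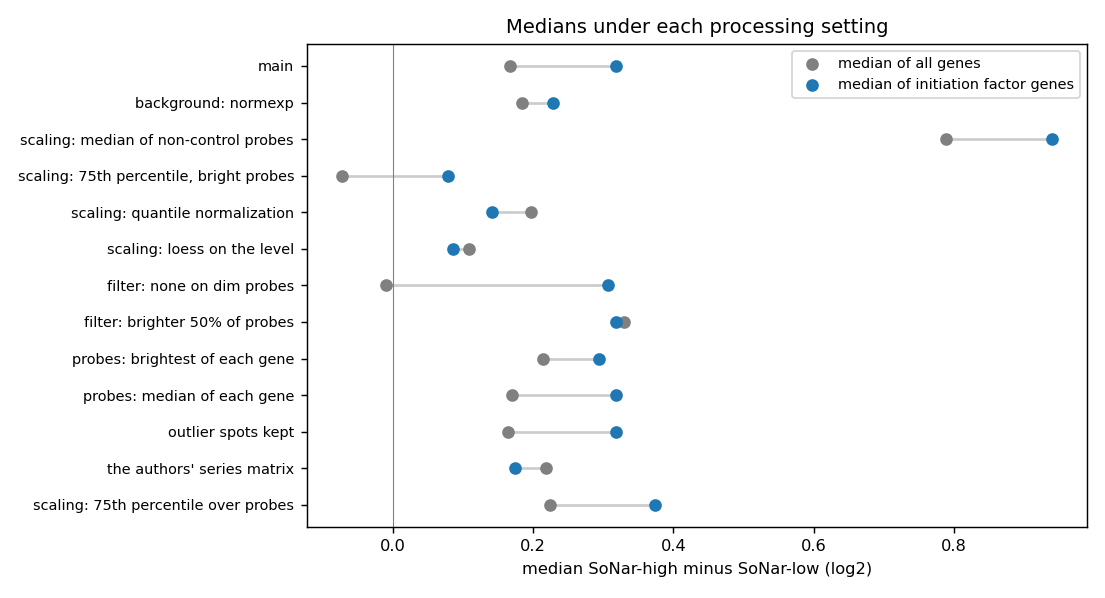
Median difference (log2, horizontal axis) of the initiation factor genes (blue) and of all measured genes (grey) under each processing setting, the grey line joining both. The family's median lay 0.15 to the right of that of all genes under the main setting and to its left after quantile normalization, loess, the brighter-probe filter and in the series matrix.

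Other genes of translation were compared from 8 lists, of which 44 of 48 genes were measured. Their median was 0.26. Of the 44 genes 0 passed 2-fold upward and 1 downward in SoNar-high cells, where 1.68% and 4.87% of all measured genes did. That 1 gene was Pdcd4, whose product blocks the eIF4A helicase, at -1.54 with 1275 units in SoNar-high and 4097 in SoNar-low cells. Eef1a1, the elongation factor that delivers aminoacyl-tRNA, came close at -0.96, and its 2 probes (-0.85 and -1.07) pointed the same way. Mknk1, a kinase of eIF4E, lay at -0.91 by 1 weak probe (74.96 units in SoNar-high and 155 in SoNar-low cells). The related kinase gene Mknk2 lay at 0.44 by 1 far stronger probe (29015 and 23663 units). Strong probes as a whole stood higher on the SoNar-high array. What the level contributed to the difference within this pair was not tested.

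By list, the medians ranged from 0.01 to 0.56, and they were not computed under the alternative settings. The 4 measured release factor genes all lay above the median gene by the mean of their probes. They ran from Hbs1l (0.28) to Pelo (0.86), a rescue factor of stalled ribosomes. The Hbs1l probes ran from -0.26 to 0.65, on both sides of that gene. The other gene of the list, Gspt2, passed background in SoNar-low cells alone. Genes linked to eIF2 phosphorylation, not all of which act on it, had a median of 0.56 over 8 genes. They ran from Eif2ak1, the haem-regulated kinase (-0.30), to Nck1 (0.88), with the kinase genes Eif2ak4 at 0.67 and Eif2ak3 at 0.60. The eIF4F regulators had a median of 0.37 over 9 genes, with Larp1, a binding protein of mRNAs with a terminal oligopyrimidine tract, highest at 0.73. Poly(A)-binding proteins and partners lay at 0.20 (Pabpc1l 0.72, Paip1 -0.31). The Paip1 value is the mean of probes at -0.86 and 0.24, on both sides of the median gene. Elongation factors lay at 0.11 (Eef1d 0.41), and the recycling and reinitiation factors at 0.01 (Mcts1 0.62, Abce1 -0.50). Both hypusine enzyme genes (Dhps 0.05, Dohh -0.03) were below the median gene, and the mitochondrial factors Mtif3 and Mtif2 lay at 0.36 and -0.13.

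**Figure D4:**
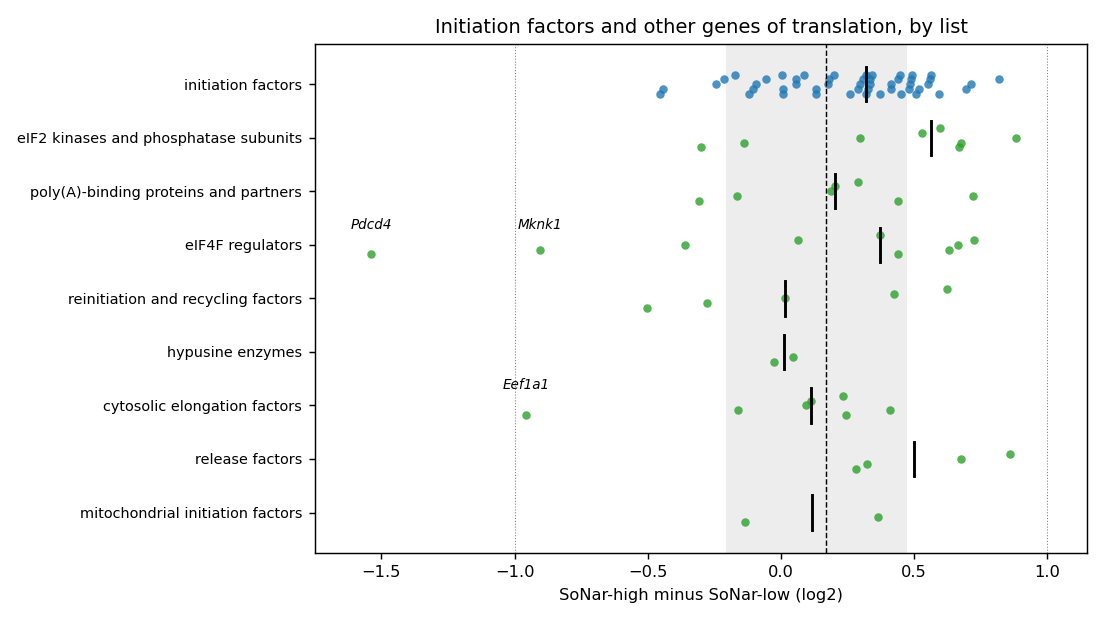
Difference between the arrays (log2, horizontal axis) for the 49 initiation factor genes (blue) and the other measured genes of translation (green), 1 point per gene, with the median of each list as a black bar, the median of all genes as a dashed line and their interquartile range in grey. Pdcd4 at -1.54 is the 1 gene beyond the dotted 2-fold lines.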

How the data were processed

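Each array was deposited by the authors as a scanner file of 1-colour intensity values, made by Agilent's Feature Extraction software (11.0.1.1 per the file headers, 9.1 per the submitters' processing notes). The deposited series matrix holds log2 values whose normalization is not given in the sources used here; its columns had medians of 5.86 and 5.86 and ranked probes as the scanner files did (Spearman's rho 1.000 and 0.9998 across 39085 probes), and its differences ran in the same direction (r = 0.85 across probes). It was used as an alternative only.

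Left out were control spots, spots flagged as non-uniform (1 for SoNar-high cells and 350 for SoNar-low cells) and population outliers (189 and 156). Log2 processed signals were averaged over the spots of a probe and scaled by the 75th percentile of all 43020 non-control spots. A gene's value was the mean difference of those probes that passed background on each array. Genes were called at 2-fold, a rule of size; no statistical test was possible. A probe that passed on 1 array got a bound, its bright value against the weakest passing signal of the dim array (or its own dim signal where that is higher). Accessions were matched without versions to symbols of a GRCm38.p6 gene table, used for names only.

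Every member with a probe is named, and the other genes come from fixed lists, of which the highest and lowest members are given. Igll1, Rag1, Ermap, Cck, Cpe, Mknk1, Mknk2, Gspt2, Eif2ak3 and Eif2ak4 were named after their values were seen. Members and lists were chosen with earlier results of these data known. The normexp alternative used the median spot signal, since a mean signal was not used here. Steps were tested on simulated data. The software was limma 3.58.1 in R 4.3.3, and Python 3.11.15 with statsmodels 0.14.6, pandas 2.3.3, numpy 2.4.6 and matplotlib 3.10.9.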

Additional observations from a re-analysis of the deposited data

How the results depend on the processing

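Values without a test were compared with the spread between spots (0.16). The counts past 2-fold stayed at 0 except that median scaling (median gene at 0.79) gave 18 initiation factor genes higher (36.7%, against 32.1% of all genes), a threshold of 1.5-fold gave 4 higher, and keeping outlier spots gave 1 lower (Eif3j1); a threshold of 3-fold gave 0 each way. Of all genes past 2-fold 25.7% were higher, against 96.1% with median scaling, 6.69% with the 75th percentile of those probes that passed background on each array, 47.1% with quantile normalization, 18.6% with normexp, 31.6% with loess, 54.6% in the series matrix, and 35.4% with the percentile over probes, which was chosen after seeing the data.

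Relative to the median gene, the family median moved from 0.15 to -0.0553 with quantile normalization, -0.023 with loess, 0.3162 with no filter on dim probes, -0.0107 with the brighter 50% of probes and -0.0436 in the series matrix. In that order eIF1 and eIF1A (0.32) gave 0.088, 0.1308, 0.4943, 0.1559 and 0.0909, and 0.4977 with the brightest probe of each gene. The eIF2 genes (0.16) gave -0.0559, -0.0187, 0.3352, -0.0032 and -0.0469, eIF2B (0.17) gave -0.0796, -0.0162, 0.3432, 0.0048 and -0.0622, eIF4A3 (0.12) gave -0.0719, -0.0463, 0.3015, -0.0368 and -0.0491, and the eIF4E-binding proteins (0.12) gave -0.0942, -0.0478, 0.2942, -0.0442 and -0.0845. The eIF3 median (0.15) gave -0.0113 with loess, 0.3276 with no filter and -0.0107 with the brighter probes. With no filter the median gene itself lay at -0.0096, and with the brighter probes at 0.3288, against 0.1672 under the main setting. The family median was 0.3066 and 0.3181 there, against 0.3179, so those shifts came mainly from the reference. The cause of the other shifts was not tested. No paired analysis was possible because each population had 1 array, and with 1 array none could be left out. For single genes 206 values moved by over the spot spread and 380 did not, 49 of those moved being with no filter and 45 with the brighter probes. The 380 include values under the scalings that shift all genes alike, where none could move relative to the median gene.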

Other observations

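Other short motifs were counted in the same promoters of the initiation factor genes, on both strands and over 250 bases before to 50 after the start site. The ETS motif CCGGAAG was present in 15 of 40 genes (37.5%), against 9.93% of all genes with a promoter and 21.2% of those measured. The CRE half-site TGACG, bound by CREB proteins, was present in 21 of 40 (52.5%, against 23.0% and 35.7%), while the full site TGACGTCA, which contains it, was in 0 of 40 (against 2.03% and 3.70%). The NRF1 motif was in 1 of 40, Eif3k (2.5%, against 1.07% and 2.38%). The median difference between the arrays was 0.33 with and 0.32 without the ETS motif (15 and 24 measured genes), and 0.33 with and 0.29 without the half-site (21 and 18).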
